A study of Homo sapiens with 12 samples.

Results

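SERPINB9 and 8 genes that lie around it on the short arm of human chromosome 6, in band 6p25, were followed through RNA-seq of NCCIT cells. The genes were SERPINB9, SERPINB6, SERPINB1, RIPK1, NQO2, BPHL, MYLK4, WRNIP1 and TUBB2A. They were chosen by name, and all 9 were found among the 26641 genes of the count table and passed the filter on low counts in every comparison.

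NCCIT is a human embryonal carcinoma line, grown from a germ cell tumour. The 6 lines studied were NCCIT cells with PiggyBac transgenes for a doxycycline-inducible Streptococcus pyogenes dCas9, fused to the activator VPR (CRISPRa) or to the repressor KRAB (CRISPRi), and for 1 of 3 arrays of 12 guide RNAs. The array LTR5HS Sp carried guides to LTR5HS, the long terminal repeat of the youngest HERVK endogenous retroviruses, on the S. pyogenes scaffold and recruits dCas9. The study reports that this array also brought dCas9 to part of the related LTR5A and LTR5B repeats and to some other sites. The array LTR5HS Sa carried the same guides on the Staphylococcus aureus scaffold, with which this dCas9 does not pair. The array nontarget Sp carried guides without a human target. All cells, controls included, received doxycycline for 4 days, and no library came from cells without a fusion. Each line gave 2 biological replicates, and for each fusion the 2 libraries with LTR5HS Sp (recruitment) were compared with the 4 that carry either of the other arrays (control). Each array was carried by its own line, so the array and the line cannot be told apart within a fusion.

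The serpins of clade B are protease inhibitors that trap their target after it cuts a reactive loop, and they work inside cells since they lack the usual signal peptide for secretion. Their human genes form a cluster on 6p25 and another on 18q21. SERPINB9 inhibits granzyme B, the protease with which cytotoxic lymphocytes kill, and is known from those lymphocytes and from tissues that are shielded from immune attack. SERPINB1 and SERPINB6 inhibit proteases of neutrophil granules, such as cathepsin G. The other genes of the stretch have unrelated roles, in death receptor signalling, quinone reduction, hydrolysis of amino acid esters, phosphorylation of myosin, DNA replication and microtubules. An LTR of this kind carries promoter and enhancer sequences of its own, and the comparison asked which host genes respond when an activator or a repressor is brought to it.

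The guides of the array were matched to the reference genome (hg38) within 1000 kb of the SERPINB9 start site, with the NGG motif that S. pyogenes Cas9 needs beside its target. The 12 guides had 5 exact sites there and 4 more with 1 mismatch. Of these, 3 exact sites lay together between SERPINB9 and SERPINB6, upstream of SERPINB9, which is read from the minus strand. They fell in an intergenic stretch, with 3 of the sites with 1 mismatch beside them. The middle of this cluster of 6 sites was 5.99 kb from the SERPINB9 start site.

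The 3 exact sites were those of guides LTR5HS-4 and LTR5HS-8, which overlap, and of LTR5HS-9 on the minus strand. The study also designed a pair of guides to cut out the LTR5HS by SERPINB9, and their exact matches enclosed 1015 bp that hold all 3 of these sites. The remaining exact sites lay apart from this cluster. One matched LTR5HS-8, on the minus strand between SERPINB9 and SERPINB6, with the fourth site with 1 mismatch beside it, and one matched LTR5HS-7, on the minus strand between NQO2 and RIPK1. Both were intergenic.

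The 4 guides that had an exact site are shown because they tie the array to this region. Read 5′ to 3′, with the NGG beside the match in capitals, they were:
LTR5HS-4: agcccgacacccgtaaAGG
LTR5HS-8: taaagggtctgtgctgAGG
LTR5HS-9: gacattccattgcccaGGG
LTR5HS-7: aaccttggacaataccTGG

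No guide matched, even with 1 mismatch, in the promoter windows of 8 of the 9 genes (250 bases before to 50 after the start, RefSeq, GRCh38). The window of WRNIP1 was not among those read. A match of letters is not a measurement of binding, and none was used here.

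From the side of the telomere, the canonical start sites (GENCODE 44) were those of MYLK4, WRNIP1, SERPINB1, SERPINB9, SERPINB6, NQO2, RIPK1, BPHL and TUBB2A. SERPINB1 (chr6:2832332-2841959) started 67.4 kb from the guide cluster, and SERPINB6 (chr6:2948159-2972165) started 62.3 kb from it on the other side. SERPINB9 occupies chr6:2887270-2903309. NQO2 (chr6:2987987-3019755) started 90.6 kb away. The other 5 genes started between 143.9 kb (WRNIP1) and 248.2 kb (TUBB2A) away, and RIPK1 (chr6:3063824-3115187) started only 13.4 kb from the single site of LTR5HS-7. Several of the genes overlap others: WRNIP1 and MYLK4 share 4938 bp on opposite strands, BPHL and TUBB2A share 82 bp on opposite strands, and NQO2 overlaps the non-coding genes LINC01011 and NQO2-AS1. Whether reads were counted by strand is not given in the sources used here, so reads from such overlaps cannot be told apart.

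The libraries held 13601701 to 69797411 counts (median 18256928), and the deepest, nontarget Sp replicate 2 with dCas9-KRAB, had 3.84 times the median of the other 11. CPM are counts scaled to a common library size after TMM normalisation, and a floor of 3 counts corresponded to 0.0462 to 0.233 CPM, which covers counting error only. The pluripotency genes that mark embryonal carcinoma stood at other levels with the 2 fusions. Their summed level (7 genes) was 857 to 869 CPM in dCas9-VPR recruitment, 950 to 1572 in dCas9-VPR control, 3598 to 4034 in dCas9-KRAB recruitment and 3630 to 4369 in dCas9-KRAB control. NANOG, one of the defining markers, averaged 2.38 CPM ± 1.85 (SD, n = 4) in dCas9-VPR control and 151 ± 33.2 (SD, n = 4) in dCas9-KRAB control. The mesoderm factor HAND1 stood the other way, at 203 ± 66.8 and 9.33 ± 5.59. The label embryonal carcinoma was therefore borne out by the markers in the dCas9-KRAB lines and only in part in the dCas9-VPR lines. The summed level of 8 markers of differentiated lineages was, in the same order of groups, 198 to 243, 152 to 288, 12.7 to 25.6 and 5.98 to 19.1 CPM. In dCas9-VPR recruitment and control most of it was HAND1 alone, at 177 to 219 and 145 to 279 CPM. The sum of 9 blood and stromal markers was 2882 to 2999, 63.0 to 98.3, 9.92 to 15.6 and 9.34 to 25.2 CPM. In dCas9-VPR recruitment and control most of that was COL1A1, at 2870 to 2992 and 60.3 to 90.1 CPM. Within dCas9-VPR, recruitment went with lower SOX2 (log2 fold change −1.24) and DNMT3B (−0.62), 2 of 7 markers, and with higher CDX2 (3.72) and GATA6 (1.29). Over all genes tested 12.3% fell and 15.7% rose in this comparison. The other 4 lineage markers tested did not pass the test: GATA4 stood at 0.87, HAND1 at −0.02, PAX6 at −0.91 and FOXA2 at −1.19. Of the blood and stromal markers COL1A1 rose, to 2931 from 69.4 CPM, while COL3A1 (log2 fold change 0.95, edgeR adjusted p = 0.2623) did not pass the test and DCN was at 0 in both recruitment libraries. PTPRC and CD3E stayed at or under 0.135 CPM in every library. CD14 averaged 0.678 CPM in dCas9-VPR recruitment and 0.269 in control, and did not pass the test (log2 fold change 1.31, edgeR adjusted p = 0.0784). NKG7, GNLY and PECAM1 reached 0.368, 0.405 and 1.28 CPM at most in any library. The part of these shifts in the values below was not tested, and in bulk RNA fewer cells with a transcript and less of it per cell cannot be told apart.

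SERPINB9 was the member with the largest response in both directions. With dCas9-VPR it stood at 1596 and 1432 CPM in the 2 recruitment libraries, and at 111, 85.7 (LTR5HS Sa), 88.1 and 67.1 CPM (nontarget Sp) in the 4 control libraries. Both recruitment libraries thus lay far above every control library. The level was 17.3-fold higher with recruitment (log2 fold change 4.11, SE 0.18, edgeR adjusted p = 4.426e-06). With dCas9-KRAB it stood at 20.4 and 12.5 CPM in recruitment, and at 161, 155 (LTR5HS Sa), 260 and 178 CPM (nontarget Sp) in control. Here both recruitment libraries lay far below every control library. The level was 11.3-fold lower with recruitment (log2 fold change −3.49, SE 0.28, edgeR adjusted p = 0.0001028). The difference between both effects was 7.61 on the log2 scale (SE 0.39, edgeR adjusted p = 2.613e-08). SERPINB9 was among 6 genes that the study picked for deletion of a nearby LTR5HS. One of its criteria was a response both ways in these libraries, so these tests are not independent evidence of its direction. The other criteria concerned the number, distance and orientation of nearby LTR5HS. The study reported lower SERPINB9 in clones with the deletion, which is not measured in these libraries. By size of log2 fold change it ranked 196 from the top of 16271 genes with dCas9-VPR and 51 from the bottom of 15520 with dCas9-KRAB.

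**Figure D1:**
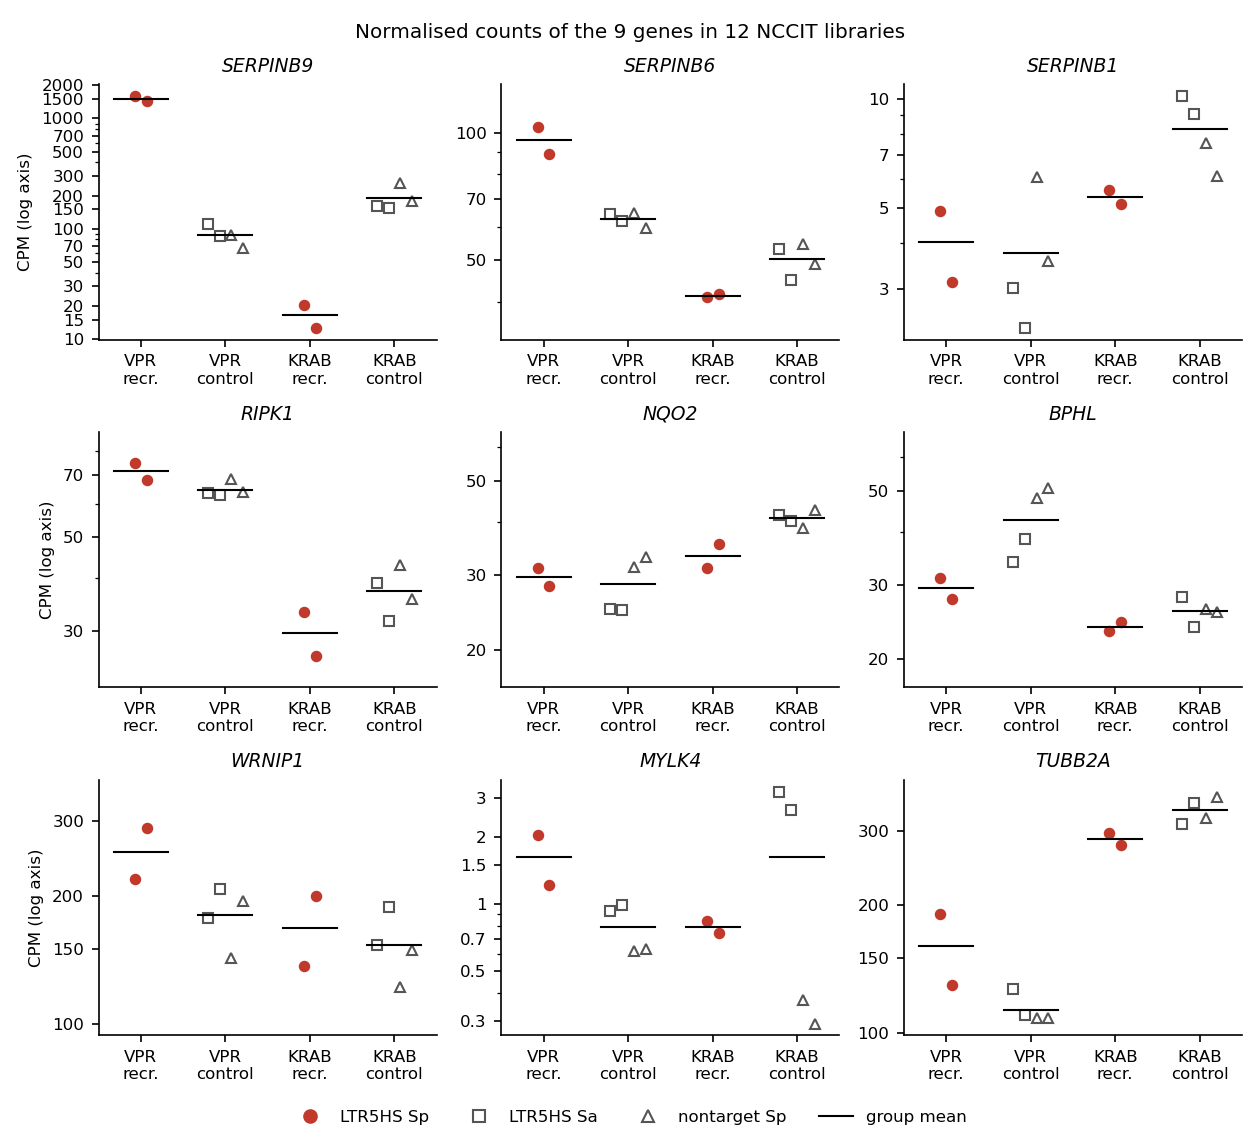
Normalised counts of the 9 genes per library, in CPM on log axes that differ between panels, for recruitment (LTR5HS Sp, filled circles) and control (LTR5HS Sa, open squares, and nontarget Sp, open triangles) with dCas9-VPR and dCas9-KRAB; black lines are group means. SERPINB9 stood at 1432 to 1596 CPM in dCas9-VPR recruitment and at 12.5 to 20.4 CPM in dCas9-KRAB recruitment, on either side of all its control libraries, and the other 8 genes varied far less between groups.

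SERPINB6, the nearest protein-coding gene on the far side of the guide cluster, moved in the same direction as SERPINB9 with dCas9-VPR but by far less. It stood at 103 and 89.2 CPM in dCas9-VPR recruitment and at 64.3, 62.0, 64.8 and 59.6 CPM in control. The recruitment libraries did not overlap the controls, and the rise of 1.54-fold passed the test (log2 fold change 0.63, SE 0.10, edgeR adjusted p = 0.002735). With dCas9-KRAB it stood at 41.0 and 41.6 CPM in recruitment and at 53.2, 45.1, 54.6 and 49.0 CPM in control. Both recruitment libraries lay below all controls, but the difference did not pass the test (log2 fold change −0.28, SE 0.12, edgeR adjusted p = 0.3357). The effects with the 2 fusions differed by 0.91 (SE 0.15, edgeR adjusted p = 0.0007856).

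SERPINB1, the third serpin of the cluster and an inhibitor of neutrophil elastase, was expressed at a low level, with 47 to 397 counts per library. In dCas9-VPR recruitment it stood at 4.91 and 3.14 CPM and in control at 3.01, 2.34, 6.07 and 3.58 CPM. The groups overlapped (log2 fold change 0.11, SE 0.38, edgeR adjusted p = 0.8527). In dCas9-KRAB recruitment it stood at 5.62 and 5.13 CPM and in control at 10.2, 9.08, 7.56 and 6.11 CPM. Recruitment lay below all controls without passing the test (log2 fold change −0.59, SE 0.24, edgeR adjusted p = 0.3133).

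RIPK1 encodes the kinase that relays signals from the TNF receptor to survival or to cell death. In dCas9-VPR recruitment it stood at 74.7 and 68.3 CPM and in control at 63.4, 62.9, 68.5 and 63.9 CPM. The groups overlapped narrowly, and the difference did not pass the test (log2 fold change 0.15, SE 0.10, edgeR adjusted p = 0.2751). In dCas9-KRAB recruitment it stood at 33.3 and 26.2 CPM and in control at 39.0, 31.7, 43.1 and 35.8 CPM. These groups overlapped too (log2 fold change −0.32, SE 0.16, edgeR adjusted p = 0.4181). The effects of the 2 fusions differed by 0.47 (SE 0.19, edgeR adjusted p = 0.09072).

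NQO2 encodes a quinone reductase that uses dihydronicotinamide riboside as its electron donor. It stood at 31.1 and 28.2 CPM in dCas9-VPR recruitment and at 24.9, 24.9, 31.2 and 33.0 CPM in control. Recruitment lay between both control arrays (log2 fold change 0.07, SE 0.15, edgeR adjusted p = 0.7821). With dCas9-KRAB it stood at 31.2 and 35.4 CPM in recruitment, below the controls at 41.6, 40.3, 38.6 and 42.7 CPM. That difference did not pass the test (log2 fold change −0.28, SE 0.12, edgeR adjusted p = 0.327).

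BPHL, a serine hydrolase that splits amino acid esters such as the prodrug valacyclovir, was the only member whose libraries lay lower with dCas9-VPR. It stood at 31.1 and 27.7 CPM in recruitment and at 34.0, 38.4 (LTR5HS Sa), 48.0 and 50.6 CPM (nontarget Sp) in control. The controls themselves differed by array, and the difference of −0.53 (log2, SE 0.18) narrowly missed the threshold (edgeR adjusted p = 0.05527). With dCas9-KRAB the 6 libraries lay between 23.3 and 28.1 CPM and overlapped (log2 fold change −0.11, SE 0.13, edgeR adjusted p = 0.7458).

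WRNIP1, an ATPase that binds the Werner helicase and acts at stalled replication forks, stood at 219 and 290 CPM in dCas9-VPR recruitment and at 178, 208, 143 and 195 CPM in control. Both recruitment values exceeded every control, but the difference did not pass the test (log2 fold change 0.50, SE 0.17, edgeR adjusted p = 0.06302). Replicate 2 was higher than replicate 1 in all 6 lines. With the replicate number as a block the rise passed the test (log2 fold change 0.50, edgeR adjusted p = 0.01768). Without LTR5HS Sp replicate 2 and without the block the value was 0.28 (edgeR adjusted p = 0.4478). With dCas9-KRAB, WRNIP1 stood at 137 and 200 CPM in recruitment and at 154, 189, 122 and 150 CPM in control, which overlap (log2 fold change 0.15, SE 0.19, edgeR adjusted p = 0.7844).

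MYLK4, a kinase of the myosin light chain kinase family, was close to the detection limit, with 9 to 56 counts per library. In dCas9-VPR recruitment it stood at 2.04 and 1.22 CPM and in control at 0.930, 0.994, 0.618 and 0.631 CPM. Recruitment lay above control without passing the test (log2 fold change 1.03, SE 0.35, edgeR adjusted p = 0.06014), and the value was 0.63 (edgeR adjusted p = 0.4333) without LTR5HS Sp replicate 1. In dCas9-KRAB recruitment it stood at 0.843 and 0.742 CPM, between the LTR5HS Sa controls at 3.20 and 2.64 CPM and the nontarget Sp controls at 0.374 and 0.292 CPM. The direction of the dCas9-KRAB contrast therefore rested on the control array. It was −1.87 (edgeR adjusted p = 0.01342) against LTR5HS Sa alone and 1.31 (edgeR adjusted p = 0.1767) against nontarget Sp alone, and −0.87 (SE 0.98, edgeR adjusted p = 0.745) against both.

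TUBB2A encodes a beta-tubulin of the microtubules. It stood at 191 and 129 CPM in dCas9-VPR recruitment and at 127, 110, 109 and 108 CPM in control. Replicate 2 of recruitment exceeded the highest control by little, and the rise passed the test narrowly (log2 fold change 0.50, SE 0.16, edgeR adjusted p = 0.04527). Without LTR5HS Sp replicate 1 the value was 0.20 (edgeR adjusted p = 0.4577), and the call was also lost without nontarget Sp replicate 1 (0.48, edgeR adjusted p = 0.07633), LTR5HS Sa replicate 2 (0.49, edgeR adjusted p = 0.07645) or nontarget Sp replicate 2 (0.48, edgeR adjusted p = 0.08891), and against LTR5HS Sa alone (0.43, edgeR adjusted p = 0.09215). With dCas9-KRAB, TUBB2A stood at 296 and 278 CPM in recruitment, below the controls at 311, 348, 320 and 360 CPM. That difference did not pass the test (log2 fold change −0.21, SE 0.10, edgeR adjusted p = 0.4136). The effects differed by 0.72 (SE 0.19, edgeR adjusted p = 0.01834). This call was lost without LTR5HS Sp replicate 1 with dCas9-VPR (0.41, edgeR adjusted p = 0.137), without replicate 1 (0.74, edgeR adjusted p = 0.05331) or replicate 2 (0.67, edgeR adjusted p = 0.07904) of LTR5HS Sp with dCas9-KRAB, and against LTR5HS Sa alone (0.64, edgeR adjusted p = 0.08486). The canonical transcript of TUBB2A aligned with that of its neighbour TUBB2B at 98.2% identity over 1343 bp, so counts could be split between them. TUBB2B itself averaged 94.8 CPM ± 27.6 (SD, n = 2) in dCas9-VPR recruitment and 84.8 ± 17.5 (SD, n = 4) in control, and did not pass the test (log2 fold change 0.17, SE 0.22, edgeR adjusted p = 0.6218).

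Counted together, 3 of the 9 genes rose with dCas9-VPR and none fell at an adjusted p under 0.05, whereas 15.7% of the 16271 genes tested rose and 12.3% fell (28% together). The median log2 fold change of the 9 was 0.50, beside −0.02 over all genes. Recruitment lay above every control for 5 of the 9 (SERPINB9, SERPINB6, WRNIP1, MYLK4, TUBB2A), as for 25% of all genes, and below every control for BPHL alone, as for 25%. With dCas9-KRAB, SERPINB9 was the only member to fall and none rose, beside 1.94% that fell and 0.831% that rose (2.77% together) of the 15520 genes tested. The median of the 9 was −0.28, beside 6e-04 over all genes. Recruitment lay below every control for 5 of the 9 (SERPINB9, SERPINB6, SERPINB1, NQO2, TUBB2A), as for 12.3% of all genes, and above for none, as for 10.8%. The effects of the fusions differed for SERPINB9, SERPINB6 and TUBB2A, all toward a higher value with dCas9-VPR, beside 11.5% of 16673 genes that differed this way and 9.53% the other way (21% together).

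**Figure D2:**
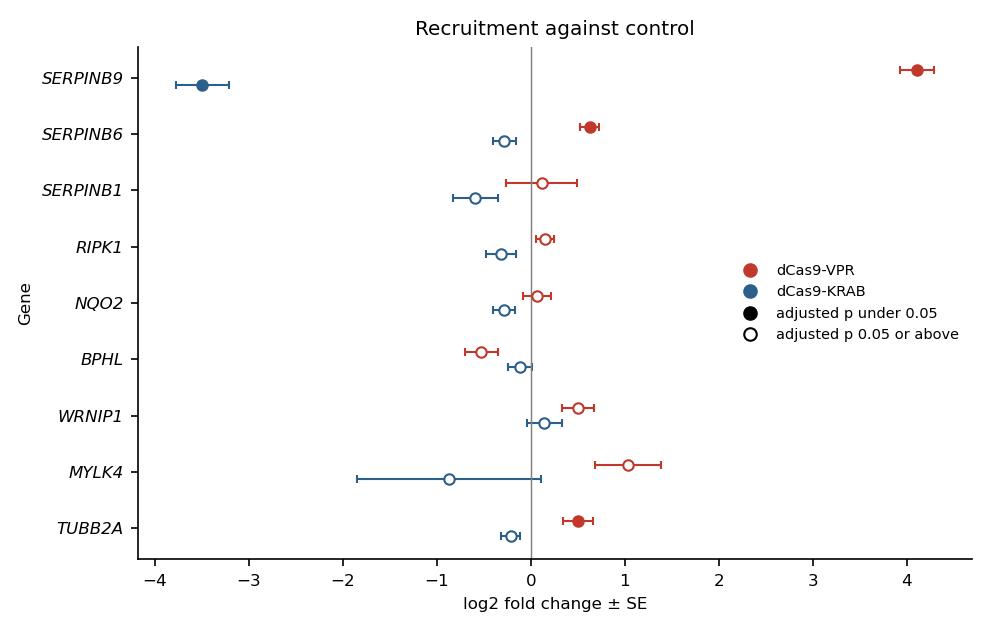
Log2 fold change of recruitment against control (points, with SE as bars) for the 9 genes with dCas9-VPR (red) and dCas9-KRAB (blue); filled points had an edgeR adjusted p under 0.05. SERPINB9 stood apart at 4.11 and −3.49, and the other values lay between −0.87 and 1.03, with SERPINB6 (0.63) and TUBB2A (0.50) called with dCas9-VPR.

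The lines with both control arrays, in which dCas9 is not recruited, gave the background of the contrasts. With dCas9-VPR, LTR5HS Sa against nontarget Sp called none of the 9 genes by edgeR, beside 4.46% of 15681 genes. Without adjustment 3 of the 9 had an edgeR p under 0.05. The highest of these, that of NQO2 (edgeR unadjusted p = 0.04415), ranked 2615 of 15681 genes by p, so such values were common. The log2 differences of the 9 ran from −0.83 (SERPINB1) to 0.64 (MYLK4). With the replicate number as a block 4 were called (SERPINB1, SERPINB9, NQO2 and BPHL), beside 24.4% of all genes tested. With dCas9-KRAB, MYLK4 was called, with LTR5HS Sa higher by 3.19 (log2, SE 0.38, edgeR adjusted p = 0.0001925), beside 1.46% of 15514 genes called. The other 8 lay between −0.45 (SERPINB9) and 0.52 (SERPINB1), and with the block 4 of the 9 were called (SERPINB1, SERPINB9, WRNIP1 and MYLK4), beside 11.2% of all genes tested. In size, without a test, the difference with recruitment was smaller than that between the control arrays for SERPINB1 and NQO2 with dCas9-VPR. With dCas9-KRAB it was smaller for WRNIP1 and MYLK4. For the other members it was larger. How often this held over all genes was not counted, so it cannot be read as particular to these genes.

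**Figure D3:**
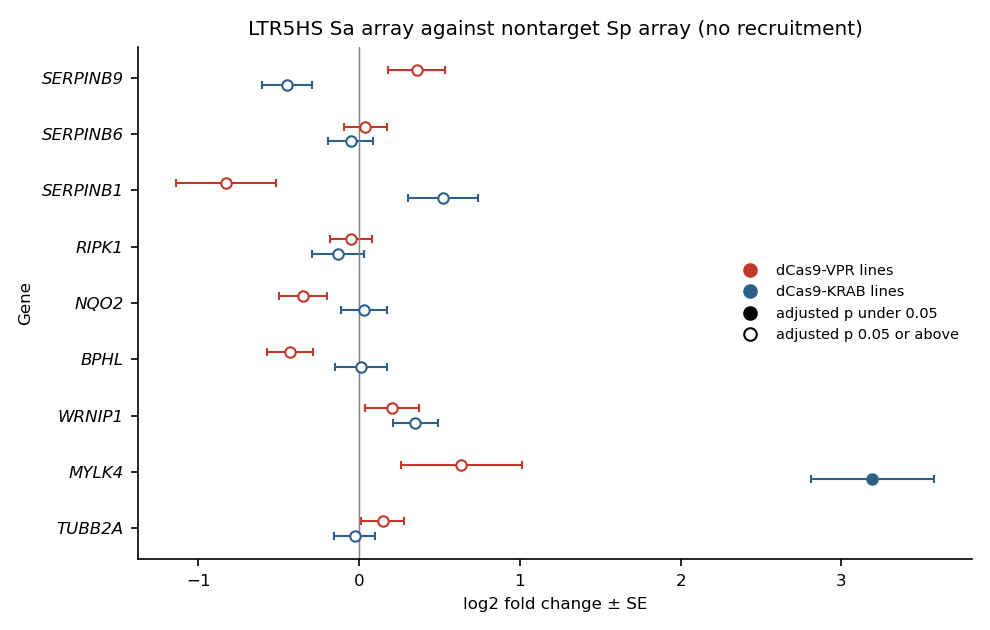
Log2 fold change of LTR5HS Sa against nontarget Sp (points, with SE as bars) for the 9 genes in the dCas9-VPR (red) and dCas9-KRAB (blue) control lines; the filled point had an edgeR adjusted p under 0.05. MYLK4 stood at 3.19 with dCas9-KRAB, and all other values lay between −0.83 and 0.64.

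Levels of the 9 genes were compared per length (RPKM, from the CPM and the deposited gene length). In the 4 dCas9-VPR control libraries WRNIP1 (68.2 RPKM ± 10.6, SD, n = 4) and TUBB2A (64.7 ± 5.19) were highest, and their ranges overlapped. SERPINB9 (21.2 ± 4.30), SERPINB6 (20.7 ± 0.791), BPHL (19.2 ± 3.52), NQO2 (15.96 ± 2.37) and RIPK1 (14.8 ± 0.584) followed, each with a range that overlapped the next. In the 4 dCas9-KRAB control libraries TUBB2A (191 RPKM ± 13.2, SD, n = 4) was highest, and the next, WRNIP1 (57.9 ± 10.3) and SERPINB9 (45.4 ± 11.7), had overlapping ranges. NQO2 (22.8 ± 0.982), SERPINB6 (16.6 ± 1.42), BPHL (11.7 ± 0.783) and RIPK1 (8.55 ± 1.10) followed without overlap between neighbours. SERPINB1 and MYLK4 were lowest with both fusions, at 1.34 ± 0.583 and 0.138 ± 0.0342 with dCas9-VPR and at 2.94 ± 0.633 and 0.282 ± 0.262 with dCas9-KRAB, and their ranges overlapped neither each other nor those of the rest. In dCas9-VPR recruitment SERPINB9 became the highest of the 9 genes at 365 RPKM ± 28.0 (SD, n = 2). In dCas9-KRAB recruitment, at 3.98 ± 1.35 (SD, n = 2), it stood above SERPINB1 and MYLK4 only.

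The control libraries of the 2 fusions were compared after the data were seen. In a fit of all 12 libraries 7 of the 9 genes differed between dCas9-VPR control and dCas9-KRAB control by edgeR, beside 55.4% of 16673 genes. RIPK1 (log2 difference 0.80, adjusted p = 4.273e-05), BPHL (0.73, adjusted p = 0.0003333) and SERPINB6 (0.32, adjusted p = 0.006251) were higher with dCas9-VPR. TUBB2A (−1.55, adjusted p = 4.235e-07), SERPINB1 (−1.11, adjusted p = 0.004022), SERPINB9 (−1.09, adjusted p = 0.0003851) and NQO2 (−0.51, adjusted p = 0.001805) were lower. SERPINB9 averaged 87.9 CPM ± 17.9 (SD, n = 4) in dCas9-VPR control and 188 ± 48.4 (SD, n = 4) in dCas9-KRAB control. The fusion, the transgenic lines and the lower level of pluripotency genes in the dCas9-VPR lines cannot be told apart in this comparison.

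The rest of the region gave the setting of these values. Of 20 genes of the table that start within 1000 kb of SERPINB9, 18 were tested. Over all genes tested, 15.7% rose and 12.3% fell with dCas9-VPR, and 2.77% were called with dCas9-KRAB. Within 100 kb of the guide cluster, a limit set with the values known, 4 of 6 genes tested rose with dCas9-VPR and all 6 had a positive fold change (median 0.92). With dCas9-KRAB all 6 had a negative fold change (median −0.58), and SERPINB9 alone was called. Farther from this cluster, 3 of 12 rose and 1 fell with dCas9-VPR (median 0.33), and none of 12 was called by edgeR with dCas9-KRAB (median −0.10). Distance was taken from this cluster alone. RIPK1 and BPHL, in the farther set, started 13.4 kb and 63.6 kb from the single site of LTR5HS-7. SERPINB6 started 45.5 kb from the sites around the other match of LTR5HS-8. The 2 sets therefore do not part genes near a guide match from genes far from one.

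**Figure D4:**
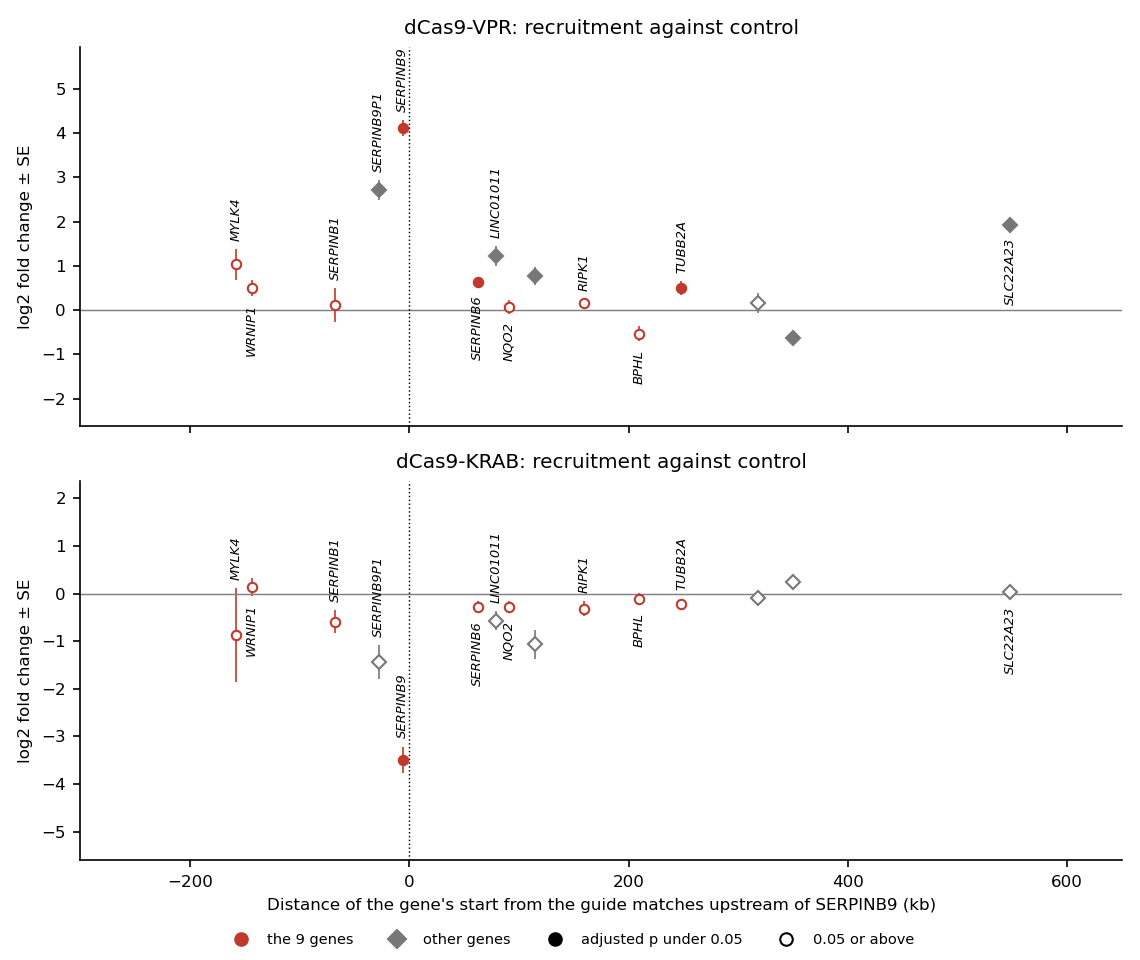
Log2 fold change of recruitment against control (points, with SE as bars) against the distance of each gene's start from the guide cluster by SERPINB9, negative toward the telomere, for 15 of the 18 genes tested within 1000 kb; circles are the 9 genes, diamonds other genes, and filled symbols had an edgeR adjusted p under 0.05. SERPINB9, at −6.0 kb, had the highest value with dCas9-VPR (4.11) and the lowest with dCas9-KRAB (−3.49), and SERPINB9P1 was next in both.

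Among 21 other genes of 6p25 in the table, 19 were tested. With dCas9-VPR 8 rose and 1 fell (median 0.56), beside 15.7% and 12.3% of all genes tested. With dCas9-KRAB FOXC1, named here after its value was seen, was the only gene called (log2 fold change 0.79, edgeR adjusted p = 0.02518), beside 2.77% of all genes. SERPINB9P1, a non-coding gene beside SERPINB9 on the same strand, stood at 6.74 CPM ± 0.173 (SD, n = 2) in dCas9-VPR recruitment and 1.03 ± 0.161 (SD, n = 4) in control. It rose by 2.72 (log2, SE 0.22, edgeR adjusted p = 6.222e-05). With dCas9-KRAB it stood at 0.500 ± 0.151 and 1.37 ± 0.157 CPM (log2 fold change −1.44, SE 0.36, edgeR adjusted p = 0.07535), and its effects differed by 4.16 (edgeR adjusted p = 4.082e-06). The canonical transcript of SERPINB9 aligned with that of SERPINB9P1 at 68.4% identity over 155 bp. Whether reads from SERPINB9 were counted for SERPINB9P1 was not tested. LINC01011, which overlaps the first part of NQO2, rose by 1.22 with dCas9-VPR (SE 0.22, edgeR adjusted p = 0.00457), while NQO2 stood at 0.07. SLC22A23, a transporter gene 547.8 kb from the guide cluster, rose by 1.93 with dCas9-VPR (SE 0.11, edgeR adjusted p = 1.126e-05) and stood at 0.03 with dCas9-KRAB (edgeR adjusted p = 0.9544). ECI2, a peroxisomal isomerase, rose by 0.64 with dCas9-VPR (edgeR adjusted p = 0.005484).

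Genes related to the members by family or pathway were read from lists. The counts from these lists stand beside 15.7% of all genes that rose and 12.3% that fell with dCas9-VPR. With dCas9-KRAB 2.77% of all genes were called. Of the 10 clade B serpins on 18q21, 8 stayed under the floor of 3 counts in every library, and SERPINB8 alone was tested; it rose from 1.69 CPM ± 0.180 (SD, n = 4) to 3.29 ± 1.04 (SD, n = 2) with dCas9-VPR (log2 fold change 0.97, edgeR adjusted p = 0.02596). Of the proteases that clade B serpins inhibit, those on the list used here were hardly detected. GZMB, the granzyme B gene, stood at no more than 0.165 CPM in any library, and of the 11 genes of that list only perforin (PRF1) was tested, which fell from 1.12 to 0.407 CPM with dCas9-VPR (log2 fold change −1.45, edgeR adjusted p = 0.02806).

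Of 18 partners of RIPK1 in TNF receptor signalling that were tested, 4 rose and none fell with dCas9-VPR (median 0.12), and with dCas9-KRAB none was called (median −0.09). TNFAIP3, a brake on NF-kappaB, rose from 5.93 to 41.2 CPM (log2 fold change 2.80, SE 0.17, edgeR adjusted p = 1.666e-05). CFLAR, which blocks caspase-8, rose from 44.7 to 124 CPM (1.48, SE 0.10, edgeR adjusted p = 3.091e-05). The adaptor TRADD (0.89, edgeR adjusted p = 0.003111) and the deubiquitinase CYLD (0.41, edgeR adjusted p = 0.02762) also rose, while RIPK1 itself stood at 0.15.

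Among 10 genes of the NRF2 response, to which NQO1, the paralog of NQO2, belongs, HMOX1 (log2 fold change 1.04, edgeR adjusted p = 0.0003338) and NQO1 (0.71, edgeR adjusted p = 0.01349) rose and SRXN1 fell (−0.62, edgeR adjusted p = 0.005478) with dCas9-VPR (median −0.14), and with dCas9-KRAB none was called (median 0.09). Of 7 other beta-tubulins tested, TUBB4A responded both ways, by 4.03 (edgeR adjusted p = 0.0002665) and −1.49 (edgeR adjusted p = 0.0004461), and TUBB6 (−0.69, edgeR adjusted p = 0.005936) and TUBB3 (−0.70, edgeR adjusted p = 0.03438) fell with dCas9-VPR. Their medians were −0.09 with dCas9-VPR and −0.03 with dCas9-KRAB. Of the other 3 myosin light chain kinases, MYLK rose from 6.23 to 48.5 CPM (2.97, edgeR adjusted p = 1.26e-05) and MYLK3 rose by 1.01 (edgeR adjusted p = 0.0108) with dCas9-VPR. Of 8 partners of WRNIP1, RECQL5 rose (0.57, edgeR adjusted p = 0.04597) and PCNA (−0.88, edgeR adjusted p = 0.004568) and BLM (−0.45, edgeR adjusted p = 0.03673) fell. With dCas9-KRAB none of the kinases or of these 8 partners was called by edgeR (medians 0.66 and −0.06).

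Over the 12 libraries, the genes whose log2 CPM followed SERPINB9 most closely among 16640 were MMP24 (Pearson r = 0.99), a membrane-bound metalloproteinase, PRDX1 (0.99), a peroxiredoxin, VSIG10 (0.98), RNF24 (0.98) and ALPP (0.98), the placental alkaline phosphatase. All 5 stood higher with dCas9-VPR recruitment (log2 fold changes 1.23 to 4.08) and lower with dCas9-KRAB recruitment (−3.71 to −1.09). MMP24 averaged 230 CPM in dCas9-VPR recruitment, 15.2 in dCas9-VPR control, 3.41 in dCas9-KRAB recruitment and 39.5 in dCas9-KRAB control, an order that SERPINB9 shared. Of the members, SERPINB6 was the most like SERPINB9 (r = 0.82), followed by RIPK1 (0.57), WRNIP1 (0.40) and MYLK4 (0.29), and the other 4 lay between −0.12 and −0.004. These values are descriptive, since the points share their libraries and groups. The 5 genes were picked by their correlation with SERPINB9 in these libraries, so the directions they share with it follow from that choice.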

How the data were processed

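The count table deposited by the authors holds raw read counts per gene for the 12 libraries, with the gene length in bp. The authors trimmed reads, aligned them to hg38 and counted them per gene; the submitters' processing notes name cutadapt 1.8.1, HISAT2 2.1.0 and featureCounts 1.4.6-p2. Which annotation and strand setting they used is not given in the sources used here. Repeat counts were not analysed here.

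The test was that of edgeR 4.0.16, run in R 4.3.3 (filterByExpr, TMM, quasi-likelihood F-test, Benjamini-Hochberg over all genes tested, threshold 0.05). SE is the log2 fold change divided by the root of F. CPM and RPKM used TMM library sizes over all 12 libraries. Alternatives were DESeq2 1.42.0 and its size factors, other filters, separate control arrays, thinned counts, a replicate block and leaving out each library. The members, lists and tests were chosen with earlier results of these data known. Named genes were all members, at most 4 per list by the smallest adjusted p, and the 5 genes most correlated with SERPINB9. HAND1, FOXA2, PTPRC, CD3E, NKG7, GNLY, PECAM1, GZMB, TUBB2B and FOXC1 fall outside this rule and were named after their values were seen.

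Replicates of a line correlated at 0.986 to 0.992 and differed beyond counting noise. Replicate differences of lines with the same fusion correlated at 0.180 to 0.375, so equal numbers may be paired within a fusion. The main fits held no block for this, and their SE and adjusted p leave it out. Calls with the replicate number as a block are given as an alternative. The labels do not say what equal numbers share. The code was checked on simulated data. Guides came from the study's list and were matched to hg38 with 0 or 1 mismatch; the genome sequence around the matches is not reported here, and transcripts were aligned with blastn 2.17.0.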

Additional observations from a re-analysis of the deposited data

Results flagged for a closer look

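For 3 members the effect of recruitment was not the same with dCas9-VPR and dCas9-KRAB by a test of the interaction: the log2 difference was 7.61 for SERPINB9, 0.91 for SERPINB6 and 0.72 for TUBB2A, each higher with dCas9-VPR. For TUBB2A the call was lost in 4 of the alternatives, among them without LTR5HS Sp replicate 1 with dCas9-VPR (0.41, edgeR adjusted p = 0.137).

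TUBB2A in dCas9-VPR control held a library apart from the others of its group: LTR5HS Sa replicate 1, at 127 CPM, left a gap of 0.908 of the range on the log2 scale to the next. It was the only such library in 18 groups of 4 checked, where chance gives about 1 in 20.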

How the results depend on the processing

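With dCas9-VPR the 3 members called became 5 by the DESeq2 Wald test (WRNIP1 and BPHL added), beside 29.3% of all genes. They were 6 with nontarget Sp alone as control (MYLK4 added too), beside 29.9%. With the control arrays as separate groups the same 6 were called, beside 36.1%. Against LTR5HS Sa alone they were 2 (TUBB2A lost), beside 34.9%. With single control libraries left out they were 2 to 4, beside 23.2% to 28.6% of all genes. With dCas9-KRAB the 1 member became 2 against LTR5HS Sa alone (MYLK4 added), beside 2.91%. The count stayed at 1 with any control library left out, beside 2.44% of all genes without LTR5HS Sa replicate 1. With a library left out, the interaction ran from 7.31 to 7.99 for SERPINB9. It ran from 0.80 to 1.01 for SERPINB6 and from 0.41 to 0.97 for TUBB2A. Between control arrays the count of 0 with dCas9-VPR became 4 with the replicate block, and that of 1 with dCas9-KRAB became 4 with the block and 2 without a filter (beside 2.81% of all genes). With the replicate block 4 members were called with dCas9-VPR (30.5% of all genes), 1 with dCas9-KRAB (3.27%) and 4 in the interaction (24.3%). RIPK1 was the member added in the interaction (edgeR adjusted p = 0.02742). Between fusions the replicate differences correlated at 0.0572 to 0.332, which overlaps the range within a fusion. Whether equal numbers are paired between fusions is not known.

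Of 475 values of single members under the alternatives, 437 kept their direction and side of the threshold, 9 lost the call (all TUBB2A), 21 gained one and 8 reversed, and none of those 8 was called before or after. The reversed values were those of SERPINB1 with dCas9-VPR (−0.25 against nontarget Sp alone, −0.24 without LTR5HS Sp replicate 1, −0.06 without LTR5HS Sa replicate 2, up to 0.44 with another library left out), NQO2 with dCas9-VPR (−0.10 against nontarget Sp alone, −3e-04 without LTR5HS Sp replicate 1, up to 0.14 without another), WRNIP1 with dCas9-KRAB (−0.017 against LTR5HS Sa alone, −0.16 without LTR5HS Sp replicate 2, up to 0.40 without another) and MYLK4 with dCas9-KRAB (1.31 against nontarget Sp alone). SERPINB9 kept its calls throughout, between 3.94 and 4.30 with dCas9-VPR and between −3.90 and −3.20 with dCas9-KRAB, as did SERPINB6 with dCas9-VPR (0.52 to 0.72). The cause of these changes was not tested. With at least 10 counts in every library MYLK4 was not tested with dCas9-KRAB. The values of MYLK4 rest on 9 to 56 counts per library, and each recruitment group on 2 libraries.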
